A study of Homo sapiens with 4 samples.

Results

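The genes described here are 10 enzymes that build and break down glycogen, the branched glucose polymer that cells keep as a carbohydrate store. They were taken by gene symbol from the RNA-seq tables. UGP2, GYG1, GYS1 and GBE1 stand for synthesis, and PYGB, PYGL and GAA for breakdown. The others are the phosphoglucomutase family PGM1, PGM2 and PGM2L1, of which PGM1 links both branches to glycolysis. All 10 had a row among the 15562 genes of the table, and all 10 passed a filter on low values (a CPM, the count scaled to the library's depth, of 1 or more in either library).

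The cells were H1975, a human lung adenocarcinoma cell line, labelled wild type (WT) and grown in RPMI medium with 10% fetal bovine serum at 37 °C. One culture was kept for 24 h in hypoxia (1% O2, 5% CO2, 94% N2) and another for 24 h in normoxia (5% CO2). Each condition was measured by 1 RNA-seq library, with 18943320 counts in hypoxia against 17643836 in normoxia. The small RNA libraries of the same series hold no value for these enzymes. With 1 library per condition no difference could be tested against the spread between cultures, so each ratio of hypoxia to normoxia carries a 95% interval for counting error alone. No molecular identifiers are mentioned for these reads, and the true error is larger.

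Glycogen synthesis starts from glucose 6-phosphate, which PGM1 turns into glucose 1-phosphate and UGP2 into the activated sugar UDP-glucose. Glycogenin (GYG1) primes a new particle by adding glucose to itself, glycogen synthase (GYS1) lengthens the chains, and the branching enzyme (GBE1) moves short stretches to form branch points. The phosphorylases PYGB and PYGL release glucose 1-phosphate from the chain ends in the cytosol, and GAA, the acid alpha-glucosidase, degrades glycogen inside lysosomes. In several other cell types, hypoxia is known to raise glycogen stores through hypoxia-inducible factors (HIF), whose binding sites share the core letters ACGTG or GCGTG.

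The stretches of reference sequence before the gene starts show where those core letters lie. Shown here are GBE1 and UGP2, 2 of the 6 members whose counting intervals lay above no change. Also shown are GYG1, the synthesis gene whose interval did not, and GAA, the member with the lowest ratio. Each is the 250 bases before the first start in RefSeq (GRCh38.p14), written in the direction of the gene, with ACGTG and GCGTG on either strand in capitals. The regions are chr3:81761646-81761895 (minus strand) for GBE1, chr2:63840719-63840968 (plus strand) for UGP2, chr3:148991290-148991539 (plus strand) for GYG1 and chr17:80101331-80101580 (plus strand) for GAA.
GBE1: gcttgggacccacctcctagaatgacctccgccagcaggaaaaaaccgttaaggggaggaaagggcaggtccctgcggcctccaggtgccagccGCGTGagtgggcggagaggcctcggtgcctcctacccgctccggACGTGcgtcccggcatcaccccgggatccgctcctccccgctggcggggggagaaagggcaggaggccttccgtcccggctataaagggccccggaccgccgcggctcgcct
UGP2: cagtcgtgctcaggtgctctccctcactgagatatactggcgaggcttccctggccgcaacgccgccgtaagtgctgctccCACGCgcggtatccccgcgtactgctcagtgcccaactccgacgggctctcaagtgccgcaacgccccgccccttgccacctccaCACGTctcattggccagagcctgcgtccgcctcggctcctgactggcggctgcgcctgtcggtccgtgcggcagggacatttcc
GYG1: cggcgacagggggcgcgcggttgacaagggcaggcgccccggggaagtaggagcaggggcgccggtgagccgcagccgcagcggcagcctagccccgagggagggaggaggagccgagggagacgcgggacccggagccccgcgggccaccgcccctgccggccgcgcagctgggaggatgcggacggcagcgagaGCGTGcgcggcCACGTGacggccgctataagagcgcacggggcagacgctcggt
GAA: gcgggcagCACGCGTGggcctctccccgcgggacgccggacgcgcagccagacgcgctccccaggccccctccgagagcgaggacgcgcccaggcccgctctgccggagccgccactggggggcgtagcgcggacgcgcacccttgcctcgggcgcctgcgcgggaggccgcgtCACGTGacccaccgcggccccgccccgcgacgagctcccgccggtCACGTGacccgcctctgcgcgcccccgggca

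GBE1 held GCGTG starting 156 bases and ACGTG starting 112 bases before its start. UGP2 held the reverse strand forms of GCGTG and ACGTG at 169 and 84 bases. GYG1 held a GCGTG at 54 bases and, at 43 bases, the palindrome CACGTG, which counts as ACGTG on both strands. GAA held the same palindrome at 76 and at 31 bases, and overlapping GCGTG matches on both strands near 242 bases. The letters thus stood before members with higher and with lower values in hypoxia. At the first start 8 of the 10 members held either. PYGL and PGM1, whose intervals also lay above no change, held neither there. Over the 13 windows that RefSeq gives for the members, ACGTG was found in 6, GCGTG in 10 and either in 10. Among the 15182 windows of all genes that passed the filter, 22.1% held ACGTG, 43.3% held GCGTG and 54.9% held either. These shares count every window of a gene, unlike the 8 of 10 at the first start. The members' windows held 51.2 to 81.2% G and C, and the content of the other windows was not computed. Nothing particular to the members is therefore read from the number of matches. A match is a run of letters and not a site shown to be bound.

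Known hypoxia genes differed between the libraries: of 8 such as VEGFA and CA9, 7 were higher in hypoxia with a log2 ratio of at least 0.32 and an interval that excluded 0. By the same rule 3.41% of the 12725 genes that passed the filter were higher. The median log2 ratio of the 8 hypoxia genes was 0.65, against 0.00 over the 12725 genes. With a 2-fold rule only 1 of the 8, NDRG1, was called, and CA9, at 1.43-fold, was not called at 1.5-fold. The cells expressed the epithelial markers KRT8 (1692 and 1821 FPKM in hypoxia and normoxia) and EPCAM, and NKX2-1, a lung lineage factor, at 34.8 FPKM in hypoxia and 32.3 in normoxia, while the surfactant gene SFTPB had 14 counts in each. Of the 10 epithelial and lung markers 1 was called, KRT7, which was lower in hypoxia by 1.34-fold (407 FPKM in hypoxia and 549 in normoxia). Of these markers' intervals, 2 lay wholly above and 4 wholly below a log2 ratio of 0. Over all genes 3.29% were called lower, and 15.0% of intervals lay wholly above and 14.0% wholly below. Among genes with 500 or more counts in each library, 19.1% lay above and 18.0% below. FPKM, the fragments per kilobase of gene scaled to the library's depth, is the authors' unit and allows levels of different genes to be compared. Most markers of other cell types were low, and their part in the results was not tested. The 4 endothelial markers with values summed to 1.08 FPKM in hypoxia and 1.248 in normoxia, the 4 squamous markers to 1.05 and 0.604, and the 6 fibroblast markers to 20.9 and 20.1, of which COL1A1 gave 16.1 and 15.1. The 4 leukocyte markers with values summed to 139.7 FPKM in hypoxia and 143.6 in normoxia, of which CD68, a lysosomal glycoprotein, gave 128 in each. The defining leukocyte marker PTPRC had 2 counts in hypoxia against 0 in normoxia. Of the liver and muscle markers, 4 had values and together held 12 counts in hypoxia against 7 in normoxia.

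The phosphorylases stood far above every other enzyme of the 10 in level. In hypoxia the order by FPKM ran PYGB (179), PYGL (129), UGP2 (44.8), PGM1 (36.3), GAA (30.7), GBE1 (29.2), GYS1 (16.6), GYG1 (9.82), PGM2 (9.74) and PGM2L1 (4.57). In normoxia it ran PYGB (187), PYGL (125), UGP2 (39.8), GAA (33.4), PGM1 (33.3), GBE1 (23.9), GYS1 (15.3), GYG1 (10.5), PGM2 (9.68) and PGM2L1 (3.95). Most neighbours in these orders differed beyond their counting intervals. The exceptions were GAA and GBE1 in hypoxia, GAA and PGM1 in normoxia, and GYG1 and PGM2 in both. PYGB lay above 97.6% of the genes that passed the filter in hypoxia and above 97.7% in normoxia, and PYGL above 96.2% and 95.8%. Synthesis enzymes summed to 100.5 FPKM in hypoxia and 89.6 in normoxia, while the breakdown enzymes summed to 338 and 345.

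**Figure D1:**
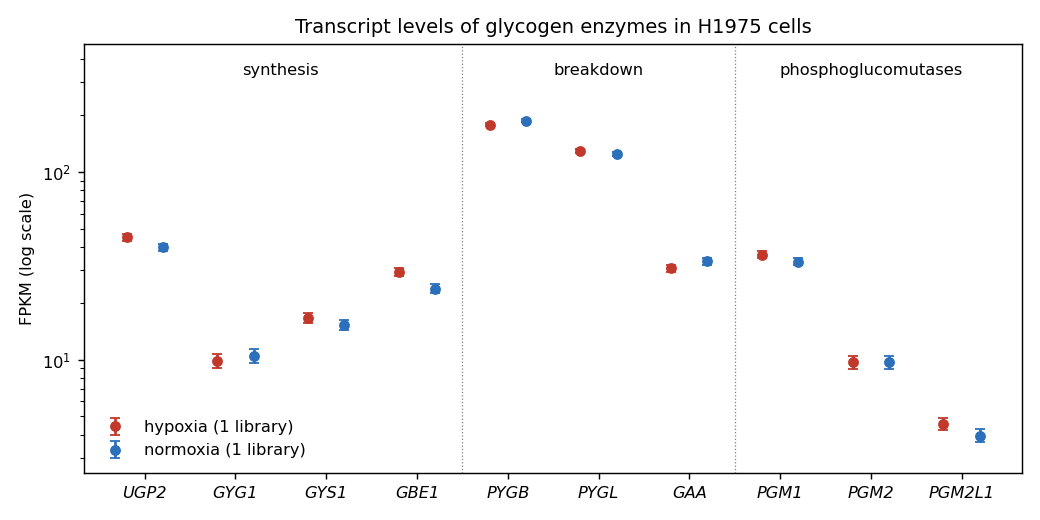
FPKM on a log axis for the 10 enzymes in hypoxia (red) and normoxia (blue), 1 library each, with exact Poisson 95% intervals for counting error. PYGB at 179 and 187 and PYGL at 129 and 125 FPKM stand above all others, and the 2 libraries lie close together for every gene.

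The transcripts of the 10 enzymes had ratios of hypoxia to normoxia from 0.925 (GAA) to 1.23 (GBE1). A gene was called higher or lower when its log2 ratio was at least 0.32 in size and its interval left out 0. By this rule 0 of the 10 were called higher and 0 lower, where 3.41% of the 12725 genes were called higher and 3.29% lower. At any size of difference, 6 members had an interval wholly above a ratio of 1 and 2 wholly below it, where this held for 15.0% and 14.0% of all genes. Counting intervals narrow with depth, and all 10 members had over 500 counts in both libraries. Of the 6878 genes that reached 500 counts in each library, a group set apart after the data were seen, 19.1% lay wholly above and 18.0% wholly below, and 1.03% and 0.829% were called in the 2 directions. With so few called, 0 of 10 members is near these shares, and nothing particular to the members is read from it. By ratio, GBE1, PGM2L1 and UGP2 lay above 98.6%, 95.9% and 92.9% of the 6878 genes. The ratios of GAA, GYG1 and PYGB lay above 16.1%, 22.1% and 30.8% of them. The members' median log2 ratio was 0.09, against 0.00 over all genes. Scaled to total counts, 4 intervals lay above, since those of GYS1 and PYGL then reached 0. The libraries were made from whole cultures, in which fewer expressing cells and less RNA per cell cannot be told apart.

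GBE1, the branching enzyme, differed most. GBE1 (Entrez 2632, GRCh38.p14 chromosome 3, 81489703 to 81761645) had 1629 counts in hypoxia against 1242 in normoxia. That is 29.2 FPKM in hypoxia and 23.9 in normoxia, and a ratio of 1.23 (1.14 to 1.33). Its log2 ratio of 0.30 was just short of a call, although its ratio was above that of 98.6% of the 6878 well-counted genes and 93.3% of all genes.

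UGP2, which makes UDP-glucose, was higher in hypoxia by a smaller step. UGP2 (Entrez 7360, chromosome 2, 63840969 to 63891560) had 2400 counts in hypoxia against 1985 in normoxia, a ratio of 1.13 (1.07 to 1.20). GYS1 (Entrez 2997, chromosome 19, 48968130 to 48993309), the synthase of muscle and most other tissues, had 1125 counts in hypoxia against 965 in normoxia, a ratio of 1.09 (1.002 to 1.19). Its interval barely cleared 1 and held 1 under total counts, at a log2 ratio of 0.12 (-0.01 to 0.24). GYS1 was the only glycogen synthase read, as the liver form GYS2 was not analysed here.

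GYG1, the primer of new particles, was the one synthesis gene with a ratio below 1, and its interval held 1. GYG1 (Entrez 2992, chromosome 3, 148991540 to 149031775) had 533 counts in hypoxia against 531 in normoxia, a ratio of 0.941 (0.833 to 1.06), too wide an interval to show a difference at this depth. RefSeq lists 3 pseudogenes named after GYG1 and a coding gene, HLTF, whose span overlaps it by 1713 bases. The sources used here do not say if reads were counted by strand, so reads of this overlap may have been set aside or shared and the value is uncertain. The second glycogenin gene, GYG2, had 11 counts in hypoxia against 10 in normoxia, under the filter, and made up 1.58% of glycogenin FPKM in hypoxia and 1.44% in normoxia.

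**Figure D2:**
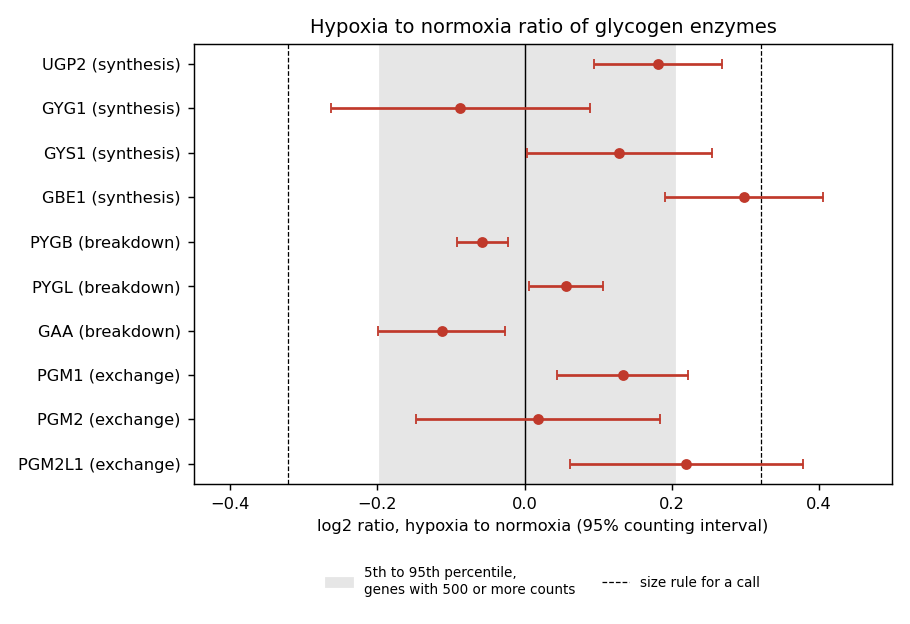
Log2 ratio of hypoxia to normoxia for each enzyme (points) with its 95% counting interval (bars), 1 library per condition. The intervals of GBE1, PGM2L1, UGP2, PGM1, GYS1 and PYGL lie above 0 and those of PYGB and GAA below 0, while no point passes the dashed lines at the size that makes a call. The grey band spans -0.20 to 0.20, the 5th to 95th percentile of 6878 genes that reached 500 counts in each library.

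Among the breakdown enzymes the cytosolic isozymes lay on opposite sides of no change, each by a few percent. PYGB (Entrez 5834, chromosome 20, 25248085 to 25298012), named for the brain form of glycogen phosphorylase, had 13937 counts in hypoxia against 13599 in normoxia, a ratio of 0.961 (0.939 to 0.984). PYGL (Entrez 5836, chromosome 14, 50905217 to 50944483), the liver form, had 6833 counts in hypoxia against 6163 in normoxia, a ratio of 1.04 (1.004 to 1.08). These ratios lay well inside the spread of other well-counted genes, above 30.8% of them for PYGB and above 68.4% for PYGL. PYGB overlaps the coding gene ABHD12 by 3270 bases and its value carries the same uncertainty of strand as that of GYG1.

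The ratio of PYGL to PYGB within a library depends on no scaling. By FPKM it was 0.721 in hypoxia and 0.666 in normoxia, a change of 1.08-fold (1.04 to 1.13, exact conditional interval of the 4 counts). PYGB made up 58.1% of phosphorylase FPKM in hypoxia and 60.0% in normoxia, and PYGL 41.9% and 40.0%. PYGM, the muscle form, had 13 counts in hypoxia against 12 in normoxia, or 0.0775% and 0.0758% of the family.

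GAA, the lysosomal enzyme whose loss causes Pompe disease, had the lowest ratio of the 10. GAA (Entrez 2548, chromosome 17, 80101581 to 80119881) had 2151 counts in hypoxia against 2181 in normoxia, which at the larger depth of the hypoxia library is a ratio of 0.925 (0.871 to 0.982). By level it was 30.7 FPKM in hypoxia and 33.4 in normoxia. Other lysosomal hydrolases went both ways: of 25 with values, 8 had intervals wholly above and 6 wholly below a ratio of 1, with a median log2 ratio of 0.03. Over the well-counted genes these shares were 19.1% above and 18.0% below, and nothing particular to the hydrolases is read from their counts. The protease CTSL, with 4746 counts in hypoxia against 3384 in normoxia, was called higher at 1.32-fold (1.26 to 1.37). MANBA, a beta-mannosidase, with 511 and 374 counts, was called higher at 1.28-fold (1.12 to 1.47), and 0 hydrolases were called lower. The call of MANBA was lost when the trend of the ratio with gene length was removed, at 1.248-fold, and by FPKM with a pseudocount of 1, at 1.20-fold, and neither call held at 1.5-fold.

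**Figure D3:**
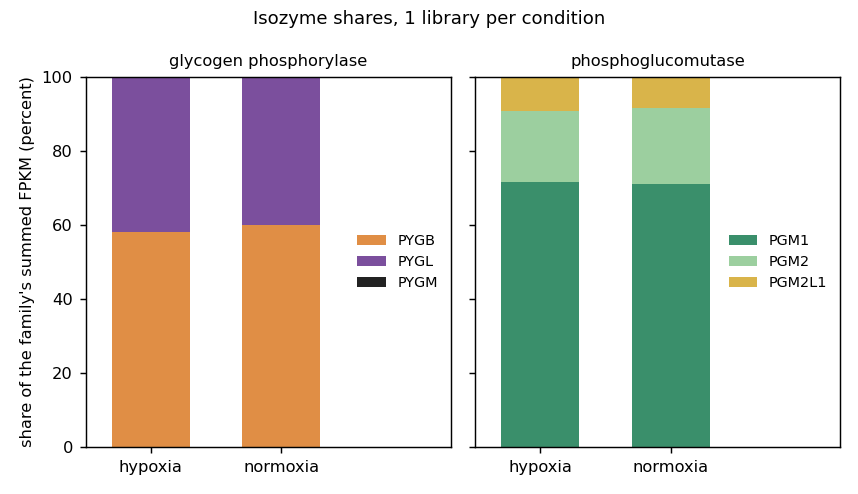
Share of each isozyme in the summed FPKM of its family, as stacked bars from 0 to 100% in hypoxia (left) and normoxia (right), 1 library each. PYGL takes 41.9% of phosphorylase in hypoxia and 40.0% in normoxia, PYGM is too small to see, and PGM1 takes 71.7% and 71.0% of the phosphoglucomutases shown.

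The phosphoglucomutases were level or slightly higher in hypoxia. PGM1 (Entrez 5236, chromosome 1, 63593411 to 63660245), which interconverts glucose 1-phosphate and glucose 6-phosphate, had 2213 counts in hypoxia against 1892 in normoxia, a ratio of 1.10 (1.03 to 1.17). PGM2 (Entrez 55276, chromosome 4, 37826686 to 37862937), which acts mainly on pentose phosphates, had 623 counts in hypoxia against 577 in normoxia, a ratio of 1.01 (0.903 to 1.14). PGM2L1 (Entrez 283209, chromosome 11, 74330316 to 74398433) makes glucose bisphosphate, the cofactor of the other phosphoglucomutases. It had 739 counts in hypoxia against 595 in normoxia, a ratio of 1.16 (1.04 to 1.30), the second highest of the 10.

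PGM1 made up 71.7% of the FPKM of these genes in hypoxia and 71.0% in normoxia, PGM2 19.2% and 20.6%, and PGM2L1 9.03% and 8.41%. PGM3, which serves amino sugar synthesis, had 850 counts in hypoxia against 781 in normoxia, a ratio of 1.02 (0.925 to 1.13), and PGM5 was not analysed here.

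Ratios between members compare the enzymes with one another and are free of the scaling between libraries. Of the 45 pairs, 21 had a 95% interval that excluded 1, with no adjustment for the number of pairs. By a normal interval, added after the values were seen because it could also be computed over all pairs of the 6878 well-counted genes, 23 of the 45 excluded 1, against 35.8% of all pairs. The 45 pairs share 10 genes, and nothing particular to these enzymes is read from their number. Relative to PYGB, GBE1 was 1.28-fold higher in hypoxia (1.18 to 1.38), UGP2 1.18-fold (1.11 to 1.26), PGM1 1.14-fold (1.07 to 1.22) and GYS1 1.14-fold (1.04 to 1.245). Relative to GAA, GBE1 was higher by 1.33-fold (1.21 to 1.46), the widest gap of any pair. Within the synthesis branch GBE1 was 1.31-fold higher relative to GYG1 (1.13 to 1.51) and 1.13-fold higher relative to GYS1 (1.003 to 1.26). GBE1 and UGP2 could not be told apart, at 1.08 (0.986 to 1.19), nor GBE1 and PGM2L1, at 1.06 (0.924 to 1.21).

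**Figure D4:**
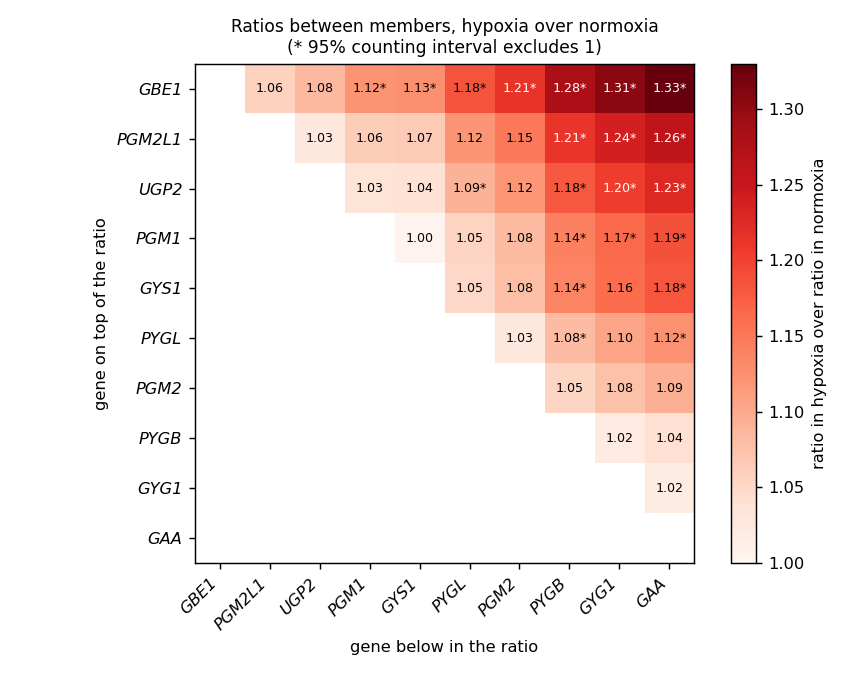
Ratio between members in hypoxia over the same ratio in normoxia, with the gene on top of the ratio down the side and the gene below it along the bottom, ordered by their own hypoxia to normoxia ratio. Ordering makes every value 1 or more, and the 21 pairs with an asterisk, among them GBE1 to GAA at 1.33, have a 95% counting interval that excludes 1.

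Larger differences were seen for 2 of the proteins that bring protein phosphatase 1 to glycogen, where it switches the synthase on and phosphorylase off. PPP1R3G, a targeting subunit, had 101 counts in hypoxia against 45 in normoxia, or 1.29 FPKM in hypoxia and 0.615 in normoxia. Its ratio of 2.10 (1.47 to 3.06) made it a call and also passed a 2-fold rule, which 0.472% of all genes passed upward. PPP1R3C, another targeting subunit that also binds glycogen synthase, had 468 counts in hypoxia against 294 in normoxia, a ratio of 1.49 (1.29 to 1.73) at 9.72 FPKM in hypoxia and 6.56 in normoxia. In this list of 10 genes 9 had values, 2 were called higher and 0 lower, and the median log2 ratio was 0.05. Ratios of 6 lay above and of 3 below 1. The intervals of 3 lay wholly above and of 1 wholly below a ratio of 1. Over all genes 3.41% were called higher and 3.29% lower, and 15.0% and 14.0% of intervals lay wholly above and below. Whether this list differs from other genes was not tested.

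None of the kinases that act on the synthase, on phosphorylase or upstream of them was called. Of the 16 listed 15 passed the filter, with 0 called higher, 0 called lower and a median log2 ratio of -0.02. Over all genes 3.41% were called higher and 3.29% lower, and nothing particular to the kinases is read from their count. PHKA1, a regulatory subunit of phosphorylase kinase, was highest with 797 counts in hypoxia against 654 in normoxia (log2 ratio 0.19, 0.04 to 0.34). PRKACB, a catalytic subunit of protein kinase A, was lowest with 204 counts in hypoxia against 234 in normoxia (log2 ratio -0.29, -0.57 to -0.01). With the length trend removed PRKACB was called lower, at a log2 ratio of -0.32.

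Of 6 genes that guard the quality of glycogen or carry it to the lysosome, 0 were called, with a median log2 ratio of 0.04. The shares over all genes were 3.41% called higher and 3.29% lower, and nothing particular to these 6 is read from their count. STBD1, which tethers glycogen to membranes, was highest on 20 counts in hypoxia against 12 in normoxia (log2 ratio 0.64, -0.46 to 1.81), and passed the fold alone by FPKM with a pseudocount of 0.1, a setting that uses no interval. EPM2A, the glycogen phosphatase laforin, was lowest with 60 counts in hypoxia against 58 in normoxia (log2 ratio -0.04, -0.59 to 0.50).

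Routes that share sugar phosphates with glycogen were mixed. For the counts of calls that follow, the shares over all genes were 3.41% called higher and 3.29% lower. Whether either list differs from other genes was not tested. Of 10 genes of UDP-glucose and galactose metabolism, 1 was called lower and 0 higher, with a median log2 ratio of 0.01. The one called was GALK1, the galactokinase, with 573 counts in hypoxia against 727 in normoxia, 1.35-fold less (log2 ratio -0.44, -0.60 to -0.28). Of 10 genes that supply or use glucose 6-phosphate, 2 were called higher and 0 lower, with a median of 0.02. These were the glucose transporter SLC2A1, at 2373 counts in hypoxia against 1361 in normoxia (1.64-fold, 1.53 to 1.75), and the hexokinase HK2, at 2392 and 1408 counts (1.59-fold, 1.49 to 1.70), both beyond the ratio of every one of the 10 glycogen enzymes.

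The annotation that the authors deposited places all 10 enzymes in starch and sucrose metabolism, together with 15 other genes. Of those 15 genes 8 passed the filter, and HK2 was the only one called, where 3.41% of all genes were called higher. Of the 8 genes, 4 had intervals wholly above and 0 wholly below a ratio of 1. Over all genes these shares were 15.0% and 14.0%, and over genes with 500 or more counts in each library 19.1% and 18.0%. The list was added after the values were seen, and whether it differs from other genes was not tested.

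**Figure D5:**
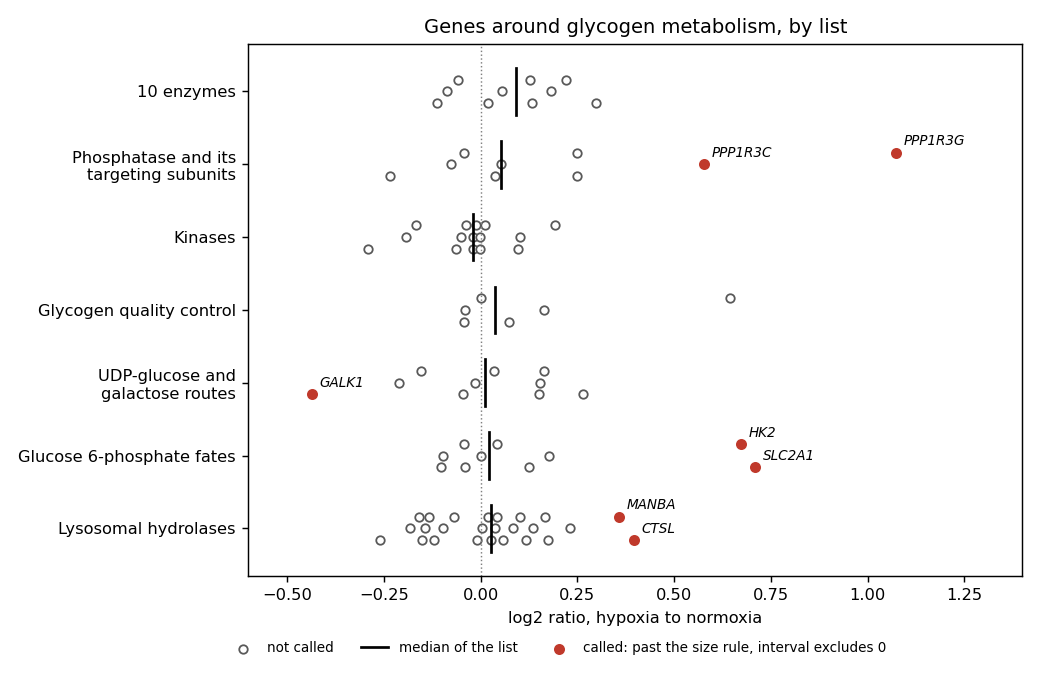
Log2 ratio of hypoxia to normoxia for each gene that passed the filter (points), by list, with the list's median (black line), 1 library per condition. Filled points are genes that were called: PPP1R3G, PPP1R3C, HK2, SLC2A1, CTSL and MANBA to the right and GALK1 to the left, while the 10 enzymes lie between -0.11 and 0.30.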

How the data were processed

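RNA-seq of H1975 cells in hypoxia and normoxia, 1 library each, was used. The deposited read counts per gene and the deposited FPKM are the authors' values. Per the submitters' processing notes, Trimmomatic, HISAT2, Cufflinks, HTSeq, Bowtie and the build GRCh38 were used, with no version or role. Per the labels' protocols, libraries came from a stranded mRNA kit. The FPKM equal the counts divided by the table total and a gene length (whole to within 0.01 bases in 100% of genes that had reads). Total counts were 18943320 in hypoxia and 17643836 in normoxia.

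Counts were scaled with TMM in edgeR 4.0.16 (R 4.3.3). Ratios carry exact conditional (Clopper-Pearson) 95% intervals, and ratios between members Fisher's conditional intervals, from scipy 1.17.1 in Python 3.11.15. A gene was kept if either library gave it a CPM of 1 or more. No p-value was computed. Gene names matched RefSeq (GRCh38.p14) by Entrez identifier, and 10 of 10 members had a promoter entry. Named genes were the members, their isozymes, and in each list those called or, with none called, the highest and lowest. One listed gene is not reported here. The members, the lists and the size that makes a call were chosen with earlier results of these data known. The annotated pathway was added after the values were seen. The ratio and interval steps were checked on simulated counts. A planned comparison of isozyme proteins was not run.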

Additional observations from a re-analysis of the deposited data

How the results depend on the processing

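At any fold with the interval excluding 1, the number of members called was 6 higher and 2 lower, in place of 0 and 0 with the size rule. With 0 members called by the size rule, 0 at 1.5-fold and at 2-fold follows and is no further check. No filter and a CPM of 5 could not change the calls either, since every member passed and kept its ratio. The number called also stayed at 0 in both directions under every other scaling, pseudocount and length alternative run. Each member's log2 ratio stayed inside its main interval under total counts, upper quartile factors, size factors of DESeq2 1.42.0, FPKM (pseudocounts of 1 and 0.1) and removal of the length trend. GBE1 ran from 0.28 to 0.31 and GAA from -0.12 to -0.11. The members' median ran from 0.08 to 0.10. With total counts 4 intervals in place of 6 lay above 0. PPP1R3G rests on 101 and 45 counts, and its list had 1 gene called higher, in place of 2, at 1.5-fold and at 2-fold. GALK1 was not called at 1.5-fold, nor HK2 and SLC2A1 at 2-fold. By read counts rather than per length, PYGL made up 32.9% of phosphorylase in hypoxia and 31.2% in normoxia, and PGM2L1 made up 20.7% and 19.4% of the phosphoglucomutases, above PGM2 at 17.4% and 18.8%, the other order from that per length. No paired analysis was possible because each condition has 1 library, and none could be left out.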

Other observations

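Some further genes of sugar and glycogen handling had intervals wholly above a ratio of 1 without a call. They were chosen after their values were seen. UGDH, which oxidises UDP-glucose to UDP-glucuronate, had 2341 counts in hypoxia against 1827 in normoxia (log2 ratio 0.26, 0.18 to 0.35). PPP1R3B, a targeting subunit of protein phosphatase 1 best known from liver, had 608 counts in hypoxia against 480 in normoxia (0.25, 0.07 to 0.42). LAMP2, a lysosomal membrane protein whose loss causes glycogen to build up in heart and muscle, had 5408 and 4531 counts (0.16, 0.11 to 0.22). GANC, a neutral alpha-glucosidase, had 372 and 281 counts (0.31, 0.08 to 0.54).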
